A study of Mus musculus with 10 samples.

Results

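The small proline-rich protein (Sprr) genes encode short, proline-rich precursors of the cornified envelope, the protein shell that lines the inner face of differentiated squamous cells. The members described here were the 9 listed Sprr genes Sprr1a, Sprr1b, Sprr2d, Sprr2e, Sprr2f, Sprr2h, Sprr2i, Sprr2k and Sprr3, and each was represented by the array probe whose RefSeq accession named it. Of the 9 members, 8 had a probe, 1 probe each, among 19096 genes with a probe on the array. No probe was paired with Sprr2i, and its RNA was not analysed here.

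Transglutaminases crosslink Sprr proteins to each other and to larger envelope proteins such as loricrin and involucrin, and Sprr proteins act as bridges between them. The genes lie next to each other in the epidermal differentiation complex, a cluster that also holds the involucrin, loricrin, late cornified envelope and S100 genes. The normal lung has a simple or pseudostratified epithelium that does not cornify, while Sprr genes are known to be switched on in squamous metaplasia and squamous carcinoma of the airway.

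RNA was measured in 5 whole lungs of wild-type mice (WT, genotype Lkb1f/f) and in 5 whole lung squamous cell carcinomas (SCC) of CCSPiCreLkb1f/f mice. All 10 samples came from B6.129 mice aged 13 months that carried floxed Lkb1 alleles and were given no special agent. In the SCC mice, Cre recombinase under the promoter of the club cell secretory protein deleted Lkb1, a tumour suppressor kinase, in the airway epithelium, so the deletion was limited to cells in which that promoter had been active. Each sample was hybridised to 1 single-colour array. The comparison of SCC with WT asks which genes differ between the squamous tumours and normal lung. Because each sample was bulk tissue, a larger share of squamous cells and more RNA per squamous cell cannot be told apart here. The titles number the replicates, and p-values measure the spread between these samples.

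Between 71.0% and 74.5% of probes were well above background on 9 arrays, and 90.2% on the array of SCC replicate 5. Of the 3 slides used, slide 1 held WT replicates 1 to 4 and slide 3 held SCC replicates 4 and 5. Both groups met only on slide 2, which held WT replicate 5 with the first 3 SCC replicates. Markers of squamous cells (keratins, p63 and the desmoglein Dsg3) were called higher in SCC for 8 of 8 tested genes, and their mean log2 level was 4.59 to 5.00 on the WT arrays, 11.34 in SCC replicate 2 and 14.36 to 14.65 in the other 4 SCC. Of 6 genes of hair follicle and pigment cells, 5 were above background on no WT array. Of these, the hair keratin genes Krt25, Krt27 and Krt35 were above it on 1 SCC array each and Krt71 on 2, and Krt27 reached 9.18 on its highest SCC array beside 4.22 on the highest WT array. Dct, the 1 tested gene, was above background on all 5 WT arrays and 1 SCC array and was not called. Most of the squamous markers were lower in SCC replicate 2 than in the other 4 SCC, but Krt15 was higher, at 12.26 beside 10.55 to 11.24. SCC replicate 2 stood apart from them for every Sprr member, and each member is also given without it. All levels are log2 intensities after quantile normalization, and differences are SCC minus WT on that scale. Levels of different probes cannot be set against each other.

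All 8 members were higher in SCC than in WT by limma (called where the adjusted p was below 0.05 and the levels differed 2-fold or more), against 9.92% of all 30374 tested probes called in that direction and 22.9% in either direction. The groups did not overlap for 7 of the 8 members, against 16.3% of all tested probes with every SCC array above every WT array and 37.2% without overlap in either direction, and the exception was Sprr1b. For Sprr2h and Sprr3 the lowest SCC reading and all WT readings were not well above background, so their separation rests on the order of such readings. The members Sprr1b, Sprr2d, Sprr2f, Sprr2h and Sprr3, were not well above background on any WT array but were on at least 4 of the 5 SCC arrays, a pattern shown by 1.43% of tested probes. For these genes the fold change is a lower bound, taken against the lowest signal that counted as above background on each WT array. The median difference over the 8 members was 7.28 on the log2 scale with these 5 genes at their bound and 8.52 on the readings as measured, beside -0.09 over all tested probes. With the normexp background correction, which lifts low signals, the 8 members stayed called with smaller differences, among them 2.31 for Sprr1b, 4.99 for Sprr2h, 5.11 for Sprr3, 7.76 for Sprr2f, 9.38 for Sprr2d and 6.73 for Sprr1a. The bounds and folds given for single members below therefore hold for the processed intensity only.

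**Figure D1:**
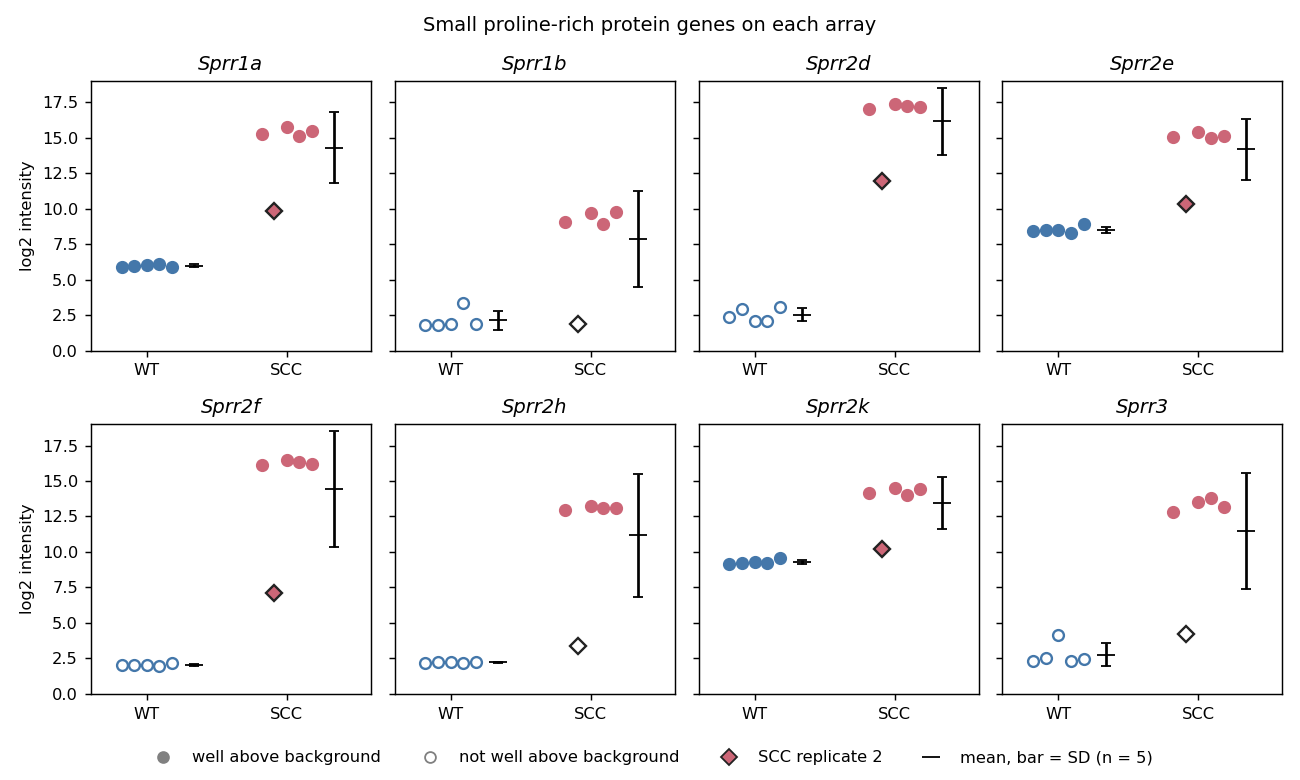
Each panel plots 1 member, with the log2 intensity on the y axis and 1 point for each of the 5 WT and 5 SCC arrays; open points were not well above background, the diamond is SCC replicate 2, and the bar beside the points is the mean with its SD (n = 5). The 4 other SCC sit close together above WT in every panel, and the diamond lies between them and WT except for Sprr1b, where it lies among the WT points at 1.86.

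Sprr1a and Sprr1b encode the first type of small proline-rich protein, known for its use in stratified epithelia under stress and in squamous differentiation of airway cells. Sprr1a read 5.91, 5.96, 6.06, 6.14 and 5.91 on the WT arrays in order of replicate, and 15.27, 9.85, 15.75, 15.16 and 15.50 on the SCC arrays. It was well above background on all 10 arrays, so a low level was measurable in normal lung, and the SCC arrays all lay above the WT arrays. Its difference was 8.31 (SE 1.01, limma adjusted p = 0.000144), a 318-fold higher level, and the exact permutation test of the 5 against 5 arrays gave p = 0.00794, the smallest this design allows. Without SCC replicate 2 the difference was 9.43 (limma adjusted p = 6.63e-10).

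Sprr1b, the second gene of this type, read 1.81, 1.84, 1.88, 3.34 and 1.89 on the WT arrays, none of them well above background. On the SCC arrays it read 9.04, 1.86, 9.71, 8.94 and 9.76. SCC replicate 2 was thus not well above background, and it was the one array that made the groups overlap. The group means were 2.15 and 7.86, which is at least 14.1-fold higher in SCC (measured difference 5.71, SE 1.39, limma adjusted p = 0.00745), and the exact permutation p was 0.0317. Over the 4 other SCC alone the level was at least 40.1-fold higher than in WT, and the fit without SCC replicate 2 gave a difference of 7.17 (limma adjusted p = 6.34e-07).

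Sprr2 is the largest branch of the family, with many near-identical gene copies in the mouse that arose by duplication. Sprr2d read 2.40, 2.92, 2.13, 2.07 and 3.10 on the WT arrays, none well above background, and 17.05, 11.97, 17.37, 17.23 and 17.16 on the SCC arrays. Every SCC array was well above background, including SCC replicate 2, whose reading lay 8.88 above the highest WT array. The means of 2.52 and 16.16 gave at least a 4441-fold higher level in SCC (measured difference 13.63, SE 0.97, limma adjusted p = 7.84e-06, exact permutation p = 0.00794). Without SCC replicate 2 the difference was 14.65, and the bound over the other 4 SCC was at least 9165-fold.

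Sprr2f read 2.04, 2.07, 2.04, 1.96 and 2.18 in WT, again not above background on any array, and 16.11, 7.13, 16.46, 16.36 and 16.20 in SCC. The 4 high tumours spanned only 0.35 log2 units, and SCC replicate 2 fell between the groups while staying above background. The means of 2.06 and 14.45 correspond to at least a 1365-fold higher level (measured difference 12.40, SE 1.66, limma adjusted p = 0.000249, exact permutation p = 0.00794). The fit without SCC replicate 2 gave 14.19, and the bound over the other 4 SCC was at least 4854-fold.

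Sprr2h read 2.19, 2.26, 2.23, 2.20 and 2.26 in WT and 12.96, 3.38, 13.27, 13.13 and 13.08 in SCC. Here SCC replicate 2 was not above background, although its reading was higher than each WT reading. The means of 2.23 and 11.16 correspond to at least a 140-fold higher level (measured difference 8.93, SE 1.76, limma adjusted p = 0.00238, exact permutation p = 0.00794). Without SCC replicate 2 the difference was 10.83 and the bound over the other 4 SCC was at least 538-fold.

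The 2 remaining Sprr2 members differed from these in that they were measured in every WT lung. Sprr2e read 8.43, 8.48, 8.51, 8.30 and 8.90 in WT and 15.05, 10.30, 15.40, 15.00 and 15.12 in SCC. Its difference was 5.66 (SE 0.88, limma adjusted p = 0.000629), a 50.4-fold higher level, and 6.64 without SCC replicate 2. Sprr2k read 9.19, 9.23, 9.30, 9.24 and 9.56 in WT and 14.13, 10.19, 14.51, 14.05 and 14.47 in SCC. Its difference of 4.17 (SE 0.75, limma adjusted p = 0.00142), or 18.0-fold, was the smallest among the 3 members measured on every array, and it was 5.00 without SCC replicate 2. For both genes all SCC arrays lay above all WT arrays (exact permutation p = 0.00794), SCC replicate 2 by 1.41 for Sprr2e and by 0.64 for Sprr2k.

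Sprr3, also called esophagin, encodes a longer protein of the family that is abundant in the lining of the oesophagus and mouth. It read 2.34, 2.56, 4.16, 2.33 and 2.47 on the WT arrays, none well above background, and 12.82, 4.22, 13.49, 13.79 and 13.14 on the SCC arrays. SCC replicate 2 was not above background and exceeded the highest WT reading by only 0.06, so the groups stayed apart for this gene by a margin between readings of which neither was well above background. The means of 2.77 and 11.49 correspond to at least a 174-fold higher level (measured difference 8.72, SE 1.68, limma adjusted p = 0.0021, exact permutation p = 0.00794). The difference was 10.49 without SCC replicate 2, with at least a 614-fold higher level in the other 4 SCC.

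SCC replicates 1, 3, 4 and 5 lay close together, with a span between 0.31 and 0.97 for each member. The shortfall of SCC replicate 2 against their mean was unequal. It was 4.10 for Sprr2k, 4.84 for Sprr2e, 5.23 for Sprr2d and 5.57 for Sprr1a, and 9.15 for Sprr2f. For the members that were not above background in that tumour the other SCC were at least 42.2-fold (Sprr1b), 567-fold (Sprr2h) and 545-fold (Sprr3) higher. In that tumour Sprr2d was still at least 245-fold and Sprr2f at least 8.52-fold above WT, Sprr1a was 14.5-fold above it, and Sprr2e and Sprr2k were 3.44-fold and 1.85-fold above it. SCC replicate 2 was the lowest of the 5 SCC for 8 of 8 members, beside 27.0% of the 30267 tested probes with a reading on every array and 71.2% of the 3008 such probes called higher in SCC. The 7 keratins of keratinizing suprabasal cells, 5 of the 6 tested being higher in SCC, had a mean level of 6.47 in that tumour. It was 4.50 to 5.05 in WT and 8.86 to 9.44 in the other SCC, and 3 of the 7 were well above background on all 10 arrays. Markers of other cells were also read in that tumour. The 7 neutrophil markers with a probe, all measured on every array and 4 of them higher in SCC, had a mean level of 9.76 there, below the WT range of 9.89 to 10.81, against 12.09 to 12.24 in the other SCC. The mean level of the 6 endothelial markers, all 6 lower in SCC, was 12.12 in that tumour, between the 10.92 to 11.20 of the other SCC and the 13.49 to 13.69 of WT. The mean level of the 4 club cell markers was 16.18 there, inside the WT range of 15.83 to 16.55, against 13.93 to 15.40 in the other SCC. That of the 7 alveolar type 2 markers was 15.61, against 15.68 to 15.82 in WT and 15.03 to 15.18 in the other SCC, and that of the 5 macrophage markers was 12.37, inside the WT range of 12.35 to 12.90 and below the 13.22 to 13.37 of the other SCC. The 5 alveolar type 1 markers, 4 of them lower in SCC, had a mean level of 13.35 there, inside the 12.96 to 13.42 of the other SCC and below the WT range of 14.15 to 14.64. The mean of the 5 ciliated cell markers was 9.93, inside both the WT range of 9.88 to 11.20 and the other SCC range of 8.23 to 10.46. The part of tissue composition in the low Sprr levels was not tested.

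With slide as a fixed block, the estimate rests on the 4 arrays of slide 2. The direction was kept for all 8 members, and 2 of them, Sprr1a and Sprr2d, stayed past the threshold, while limma's adjusted p for the other 6 was 0.0550 to 0.240. Within slide 2 the differences ran from 3.39 for Sprr2k to 12.37 for Sprr2d, and SCC replicates 1 and 3 were above WT replicate 5 for every member. With SCC replicate 2 left out of the blocked fit, an alternative chosen after seeing the data, 8 of 8 members were called. The groups also differ in slide, since most WT arrays shared 1 slide, and for those arrays slide and group cannot be told apart.

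Among the Sprr genes outside the list, 5 had probes. The mouse Sprr2 copies Sprr2b and the transcribed pseudogenes Sprr2j-ps and Sprr2g were measured above background on all 10 arrays. Sprr2b rose from a mean of 10.17 to 14.54 (difference 4.37, SE 0.79, limma adjusted p = 0.00145), Sprr2j-ps from 8.31 to 13.15 (4.84, SE 0.87, limma adjusted p = 0.0014) and Sprr2g from 7.15 to 11.22 (4.07, SE 0.90, limma adjusted p = 0.00433). With slide as a fixed block none of the 3 stayed called. In SCC replicate 2 they were only 0.91, 1.09 and 0.14 above the WT mean, and for Sprr2g that reading lay inside the WT range.

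Sprr2a1 had 2 probes that disagreed. Probe A_52_P18887 read 4.35, 3.52, 4.30, 4.50 and 4.38 in WT, above background on 3 of the 5 arrays, and 16.58, 11.81, 16.94, 16.73 and 16.84 in SCC, a difference of 11.57 (SE 0.91, limma adjusted p = 1.38e-05). Probe A_52_P981257, paired with the same accession, read between 15.98 and 16.24 in WT and between 15.98 and 16.19 in SCC, a difference of -0.03 (limma adjusted p = 0.783). The sequences of the probes were not used here, so which copies of the gene each one detects is uncertain, and the same holds for every Sprr2 probe. The numbers for single Sprr2 members should be read with that limit.

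Sprr4, which lies at the end of the Sprr cluster beyond Sprr1a, was measured on all 10 arrays and did not pass the test. It read 6.79, 5.66, 6.33, 6.35 and 7.78 in WT and 6.67, 6.57, 5.64, 6.09 and 8.10 in SCC, a difference of 0.03 (SE 0.49, limma adjusted p = 0.960). SCC replicate 2 sat in the middle of the SCC values for this gene. Leaving out the Sprr4 probe and Sprr2a1 probe A_52_P981257, every Sprr probe on the array was called higher in SCC.

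**Figure D2:**
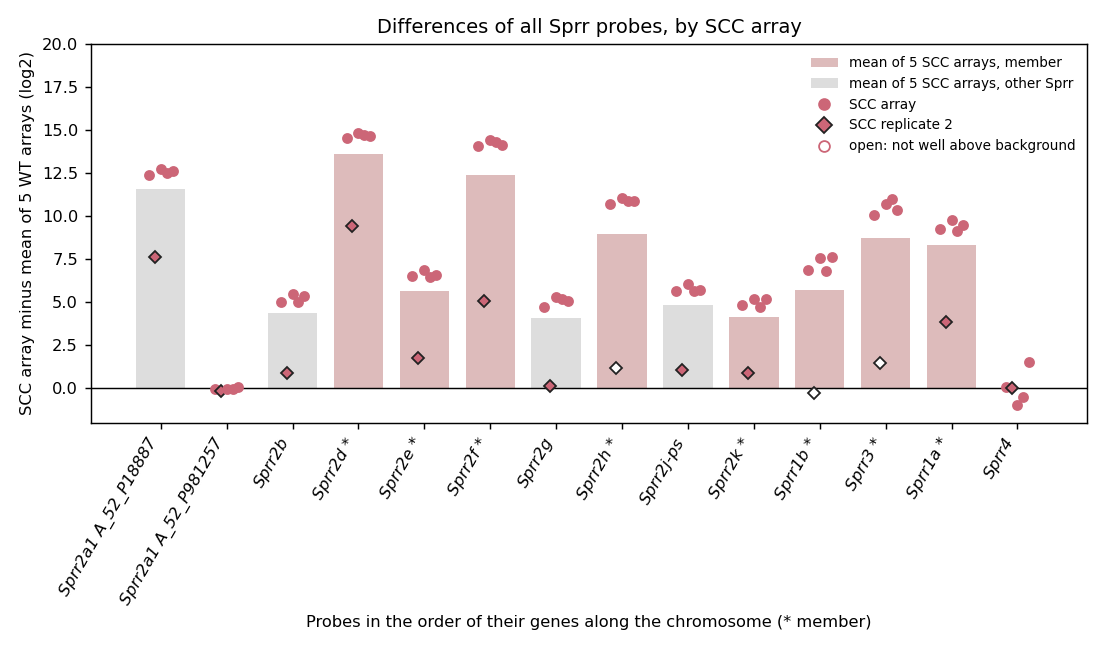
Bars give the mean difference of the 5 SCC arrays from the WT mean (log2, y axis) for each Sprr probe, in the order of the genes along the chromosome on the x axis (members marked *), and points give the single SCC arrays, with SCC replicate 2 as a diamond and open symbols not well above background. The WT levels of Sprr1b, Sprr2d, Sprr2f, Sprr2h and Sprr3 were not well above background, so their bars are measured values and not full fold changes; the bar of Sprr4 and that of Sprr2a1 probe A_52_P981257 lie at 0.03 and -0.03.

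Because most of the cluster moved together, the sequences around the transcription starts were compared. The promoters shown are those of the 3 Sprr2 members with the largest, second largest and smallest measured difference, of Sprr1a, and of Sprr3, the one member without AP-1 letters. They run from 250 bases before to 50 bases after the start annotated by RefSeq (build GRCm38.p6) and are written 5′ to 3′ on the gene's strand, with motif letters in capitals.
Sprr2d (chr3:92338890-92339189, + strand): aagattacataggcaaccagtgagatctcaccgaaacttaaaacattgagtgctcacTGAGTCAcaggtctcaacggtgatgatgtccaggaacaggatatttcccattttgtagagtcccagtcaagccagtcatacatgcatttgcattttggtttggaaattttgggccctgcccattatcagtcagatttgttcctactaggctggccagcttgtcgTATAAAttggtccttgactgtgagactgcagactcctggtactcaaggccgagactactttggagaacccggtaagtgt
Sprr2f (chr3:92364937-92365236, + strand): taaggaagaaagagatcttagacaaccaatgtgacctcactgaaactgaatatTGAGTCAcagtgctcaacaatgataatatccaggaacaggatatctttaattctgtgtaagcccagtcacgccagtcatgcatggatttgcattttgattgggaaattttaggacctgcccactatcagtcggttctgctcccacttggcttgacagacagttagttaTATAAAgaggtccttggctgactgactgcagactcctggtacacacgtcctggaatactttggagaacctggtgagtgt
Sprr2k (chr3:92432332-92432631, + strand): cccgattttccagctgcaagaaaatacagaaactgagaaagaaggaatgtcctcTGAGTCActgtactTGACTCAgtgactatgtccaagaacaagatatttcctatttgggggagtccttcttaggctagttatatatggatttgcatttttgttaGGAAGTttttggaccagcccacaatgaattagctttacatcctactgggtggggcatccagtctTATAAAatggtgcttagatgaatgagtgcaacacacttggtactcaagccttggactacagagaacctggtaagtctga
Sprr1a (chr3:92485832-92486131, - strand): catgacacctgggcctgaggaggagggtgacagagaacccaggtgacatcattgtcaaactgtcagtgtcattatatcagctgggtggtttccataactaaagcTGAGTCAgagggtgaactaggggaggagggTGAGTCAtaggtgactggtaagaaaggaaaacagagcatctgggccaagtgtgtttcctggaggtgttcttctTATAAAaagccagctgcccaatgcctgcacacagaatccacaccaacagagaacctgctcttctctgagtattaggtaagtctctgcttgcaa
Sprr3 (chr3:92458671-92458970, - strand): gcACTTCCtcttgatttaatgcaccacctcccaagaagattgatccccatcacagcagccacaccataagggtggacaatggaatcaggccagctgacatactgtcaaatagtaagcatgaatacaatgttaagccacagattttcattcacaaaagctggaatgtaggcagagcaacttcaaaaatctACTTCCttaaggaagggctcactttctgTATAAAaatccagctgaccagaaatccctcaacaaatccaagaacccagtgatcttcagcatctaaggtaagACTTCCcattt
The capitals mark TGANTCA, the palindromic letters bound by AP-1 (dimers of Jun and Fos proteins), GGAAGT or GGAAGC on either strand, a core bound by Ets factors, and TATAAA on the gene's strand, the TATA box. None of these matches overlap in the sequences shown, and a match describes letters and not a bound site.

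AP-1 letters were found in 8 of the 9 member promoters, beside 7.81% of the 32851 promoters in the table, and the exception was Sprr3. The TATA letters were found in 9 of 9, beside 8.32%. The Ets letters were found in 3 of 9 (Sprr2i, Sprr2k and Sprr3), beside 43.6%. The 6 Sprr2 members are duplicated copies with similar promoters, so these counts are not counts of independent promoters. In the 6 Sprr2 members the AP-1 letters read TGAGTCA and began 193 to 198 bases before the start, and Sprr2k had a second match at 182. The TATA letters began 29 bases before the start in each of them. Sprr1a had AP-1 letters at 146 and 116 bases before the start, and Sprr1b had the variant TGAATCA at 111. The window of Sprr4 held neither AP-1 nor TATA letters, and the same was true of Sprr2a1, Sprr2a2 and Sprr2a3. Sprr2a1 probe A_52_P18887 was higher in SCC by 11.57, while probe A_52_P981257 differed by -0.03. Sprr2b, which was higher in SCC, had AP-1 and TATA letters, at 195 and 29 bases.

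The Sprr2 member promoters were alike beyond these motifs. In global alignments of the 300 bases, the 15 pairs of Sprr2 members shared 67.3% to 89.7% of their bases, highest for Sprr2d and Sprr2e, while the 21 other pairs of members shared 57.3% to 65.3%. The longest run of letters present in all 6 Sprr2 members, looked for after the expression values were known, was ATTTGCATTTT, which began 108 to 112 bases before the start. It occurred in 19 of the 32851 promoters (0.0578%), those 6 included. Sprr2d and Sprr2e, with the most similar promoters of any pair of members, had differences of at least 4441-fold and of 50.4-fold. The first is a bound from a probe at background in WT and the second a measured fold. Which gene copies each probe detects is uncertain, so these values do not compare the genes.

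**Figure D3:**
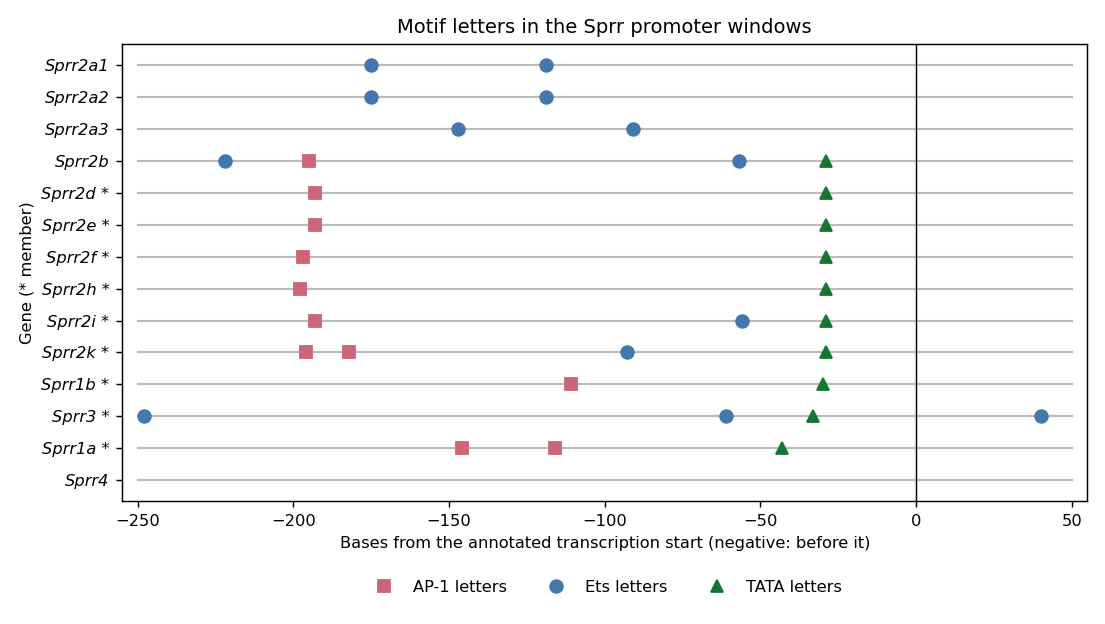
Each line is the promoter window of 1 Sprr gene, with the distance in bases from the annotated start on the x axis and symbols at the first base of each AP-1, Ets or TATA match; members are marked *. The Sprr2 members share AP-1 letters near 193 to 198 bases and TATA letters at 29 bases before the start, and the window of Sprr4 holds no match. Those of Sprr2a1, Sprr2a2 and Sprr2a3 hold Ets letters only.

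Factors known to act on SPRR promoters, among them AP-1 subunits, epithelial Ets factors, Krüppel-like factors and p63, were read in the same fit. Of 21 tested regulators, 11 were higher and 2 lower, with a median difference of 1.04. The squamous master regulator Trp63 rose by 7.44 (SE 0.27, limma adjusted p = 2.13e-07) and Zfp750, a p63 target in keratinocytes, by 4.73 (SE 0.36). The epithelial Ets factors rose as well, Elf3 by 4.01, Ehf by 3.39 and Elf5 by 1.29. Higher levels were also called for Ovol1 (3.32), Grhl1 (3.02), Klf5 (2.35), Fosl2 (1.76) and Junb (1.04). Fosl1, above background on 1 of the 5 WT arrays and all 5 SCC arrays, was called higher too (readings differed by 3.09). The AP-1 subunit Jun (-1.67, SE 0.09, limma adjusted p = 1.79e-06) and the Ets factor Ets1 (-1.66, SE 0.16) were lower. Klf4, Klf6, Fos and Jund passed the adjusted p but differed by less than 2-fold (-0.88, -0.73, 0.86 and -0.25). With slide as a fixed block 9 regulators were called higher and 2 lower.

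In SCC replicate 2 all 11 higher regulators exceeded every WT array. It was the lowest SCC for 7 of the 11 (63.6%), beside the 71.2% of probes called higher. Trp63 read 12.13 there, beside 12.82 to 13.45 in the other SCC and a WT mean of 5.50 (SD 0.38, n = 5). Ehf read 12.15 and Elf5 12.69, above the other SCC ranges of 11.40 to 11.72 and 12.44 to 12.57, and Klf5 read 12.99, inside 12.91 to 13.29. Grhl1 (10.57 beside 12.85 to 13.42), Ovol1 (8.29 beside 9.46 to 10.01), Fosl1 (5.54 beside 5.93 to 7.76), Fosl2 (10.88 beside 11.85 to 12.36), Zfp750 (11 beside 11.93 to 12.41) and Elf3 (11.72 beside 12.58 to 13.00) lay below the other SCC. Klf4 was lowest there, at 14.01, beside 14.93 to 15.10 in the other SCC and 15.33 to 15.93 in WT.

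The transglutaminase family, which includes the crosslinking enzymes of the envelope, followed the Sprr members in part. Tgm1, the main transglutaminase of squamous cells, rose by 4.87 (SE 0.92, limma adjusted p = 0.00182) and Tgm5 by 2.47. Tgm3, above background on 2 of the 5 WT arrays and 4 of the 5 SCC arrays, was called higher too (readings differed by 2.42, limma adjusted p = 0.0458). Tgm2, the widely expressed tissue transglutaminase, had a difference of 0.03 (limma adjusted p = 0.875), and F13a1, the factor XIII chain found in plasma and macrophages, fell by 1.85. Tgm4 was lower by less than 2-fold (-0.82). In SCC replicate 2, Tgm1 read 9.10, above the WT range of 8.02 to 8.41 but far below the 13.87 to 14.36 of the other SCC. Of the 6 tested enzymes 3 were thus higher and 1 lower. The count of higher enzymes was 4 without SCC replicate 2, 3 without SCC replicate 5, 2 without any other single replicate, 1 with normexp and 0 with slide as a fixed block.

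Among the listed envelope partners, which are genes of the envelope and of squamous differentiation, 21 of 25 tested genes were higher in SCC and 0 lower. Over all tested probes 9.92% were called higher. The median difference of the 25 was 4.14, or 3.27 with the 10 genes at background in WT set at their bound. With slide as a fixed block 1 of the 21 higher genes stayed called. Krtdap, a keratinocyte differentiation factor, was above background on 1 of the 5 WT arrays and all 5 SCC arrays and was called higher (readings differed by 8.67, SE 1.55). The rule also named Lce3f (at least 74.1-fold), Kprp (at least 53.6-fold), Lce1d (at least 15.8-fold) and Lce1f (at least 13.0-fold). With WT at or near background, these values do not order the genes. Loricrin (Lor) rose by 4.42. Involucrin (Ivl), above background on 3 of the 5 WT arrays and all 5 SCC arrays, was called higher too (readings differed by 2.88). The smallest differences were those of Lce1l (-0.14), Sbsn (0.41) and Lce1g (-0.45), which did not pass the test. Of the 21 higher genes, 14 were at or below the highest WT array in SCC replicate 2, beside 607 of the 3008 probes called higher with a reading on every array, and for Lce genes at background such readings have no measured order.

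**Figure D4:**
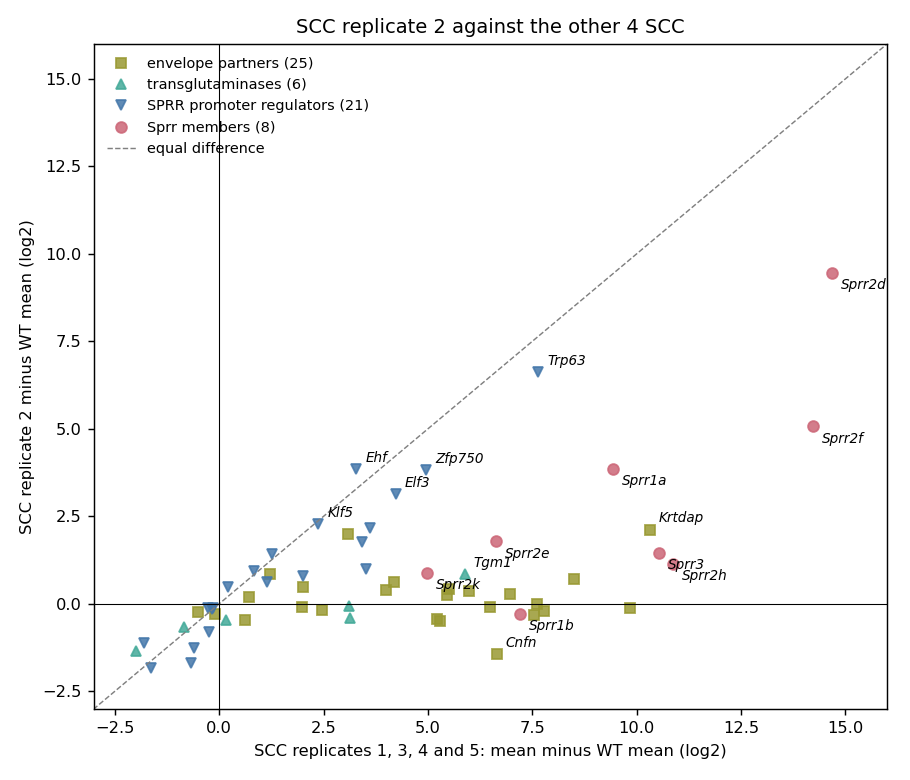
For each gene the difference of SCC replicate 2 from the WT mean (log2, y axis) is plotted against that of the mean of SCC replicates 1, 3, 4 and 5 (log2, x axis), for the Sprr members, envelope partners, transglutaminases and regulators, with a dashed line of equal differences. Trp63, Ehf and Klf5 lie on or near the line, Sprr2d, Sprr2f and Sprr1a between the line and 0, and most envelope partners near 0.

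In the stretch of chromosome 3 from S100a1 to S100a10 that contains the Sprr cluster, 34 other genes were tested, of which 24 were higher and 0 lower (3 higher with slide as a fixed block), with a median difference of 2.40, or 2.14 with 12 genes at their bound. Of these 34 genes 20 are envelope partners given above. Of the 14 others, 7 were higher, among them Crct1, a cysteine-rich gene of the complex, and S100a7a (at least 36.0-fold), the mouse psoriasin. Crct1 was above background on 2 of the 5 WT arrays, and its readings differed by 9.15 (SE 2.06, limma adjusted p = 0.0049). S100a10 (0.12), at one end of the stretch, did not pass the test, and S100a13 (-0.39) near the other end differed by less than 2-fold. The difference was thus not shared by every gene of the complex, and Sprr4 lies between Sprr1a, with a difference of 8.31, and Ivl.

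The genes outside the family whose profile over the 10 arrays lay nearest to the mean profile of the members were 2300002M23Rik (root mean square distance 0.32 log2 units), Prss27 (0.43), Krt16 (0.50), Serpinb11 (0.51) and Adgrf1 (0.55), out of 15574 genes. Most members lay farther from that mean than these genes, from 0.40 (Sprr1a) and 0.81 (Sprr3) up to 2.66 (Sprr2d). Prss27 encodes a serine protease, Krt16 a keratin of hyperproliferative epithelium, Serpinb11 an intracellular serpin and Adgrf1 an adhesion receptor. Krt16, measured on all WT arrays, was 450-fold higher in SCC and 23.3-fold higher in SCC replicate 2. The other 4 were not well above background on any WT array, and were at least 102-fold (Prss27) to 132-fold (2300002M23Rik) higher in SCC. In SCC replicate 2 the largest of their bounds was at least 3.03-fold (Serpinb11). The distances use readings at background as they stand.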

How the data were processed

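Agilent Feature Extraction (version 12, per the submitters' processing notes) gave the deposited scanner files, which hold for each spot a background-subtracted processed intensity on a linear scale, median raw intensities and quality flags. A second file deposited by the authors, a matrix on the log2 scale, correlated with the quantile-normalized log2 intensities computed here at r of at least 0.9999 on every array and served as an alternative. The authors' methods state quantile normalization, log2 transformation and a one-way analysis of variance.

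Outlier-flagged and control spots were left out, repeat spots were averaged, and quantile normalization was run over 41174 probes. No spot was saturated. The well-above-background flag of an array was taken as met if 0.5 or more of a probe's spots carried it, and 30374 probes that met this on 4 or more of the 5 arrays of either group were tested. The model was fitted to all 10 arrays in limma 3.58.1 (R 4.3.3) without covariates, two-sided, with Benjamini-Hochberg adjustment over all tested probes. Calls needed both an adjusted p under 0.05 and a 2-fold difference. The exact permutation test, two-sided, ran over all splits of the 10 arrays. A bound sets the SCC mean against the mean of, per WT array, the higher of the probe's signal and the lowest signal well above background.

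The members, the lists and the tests were chosen with earlier results of these data known. Where a gene had several probes, that of highest mean was taken. Every regulator and transglutaminase with a value may be named; from the envelope partners and neighbours the rule names the 5 largest and 3 smallest differences, and Lor and Ivl were added after their values were seen. Probes were named through RefSeq accessions (GRCm38.p6, 28223 of 41174 probes), and all 9 member promoters matched in that table. The arrays' number limits the precision. Alternatives were another scaling, background correction, filters, blocks, array weights, the methods' t-test and leaving out replicates. The normexp correction used the median spot signal, since the scanner files used here give no mean signal. The fit was tested on simulated data.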

Additional observations from a re-analysis of the deposited data

Results flagged for a closer look

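In 28 groups of 5 arrays, 1 WT and 1 SCC group for each of 14 Sprr probes, the gap between the lowest or highest array and its neighbour was divided by the whole range of the group. It exceeded the critical value of 0.71 in 16 groups, a value that chance exceeds in about 1 in 20 single groups. The 14 probes were read on the same arrays, so the groups are not independent and their count cannot be set against that rate. SCC replicate 2 was the low array in 12 of the 16.

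For the members, the gap of SCC replicate 2 took up 0.899 of the SCC range for Sprr1a, 0.896 for Sprr1b, 0.94 for Sprr2d, 0.921 for Sprr2e, 0.962 for Sprr2f, 0.969 for Sprr2h, 0.892 for Sprr2k and 0.899 for Sprr3. For the other Sprr genes it took up 0.897 for Sprr2b, 0.916 for Sprr2j-ps, 0.889 for Sprr2g and 0.929 for Sprr2a1 probe A_52_P18887. Sprr4 and Sprr2a1 probe A_52_P981257 showed no such gap.

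The other 4 gaps lay among WT arrays. WT replicate 4 read 3.34 for Sprr1b, beside 1.89 on the next array (0.952 of the range), and WT replicate 3 read 4.16 for Sprr3, beside 2.56 (0.874), none of these readings being well above background. WT replicate 4 was low for Sprr2j-ps, at 7.60 beside 8.39 (0.768), and WT replicate 2 was low for Sprr2a1 probe A_52_P18887, at 3.52 beside 4.30 (0.793).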

How the results depend on the processing

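The members were called 8 of 8 in all alternatives but 2. With probes above background on all 10 arrays, 3 members were tested and 3 called, with 7 envelope partners, 1 transglutaminase and 8 neighbours higher, since fewer probes were tested. With slide as a fixed block, 2 members were called, 2989 of all probes, 0 other Sprr genes, 1 envelope partner, 0 transglutaminases in either direction and 3 neighbours. Under it Sprr1b differed by 4.98 (limma adjusted p = 0.240), Sprr2e by 4.69 (0.106), Sprr2f by 11.06 (0.0550), Sprr2h by 7.60 (0.165), Sprr2k by 3.39 (0.152) and Sprr3 by 7.71 (0.140). The cause was not tested, though this fit rests on 1 WT and 3 SCC arrays. All probes called numbered 6954, and 3969 with normexp (1 transglutaminase higher, member differences 2.31 to 9.38) and 14878 on the adjusted p alone. Scaling by the 75th percentile moved the median difference from -0.09 to 0.03 and the share of higher calls from 43.3% to 53.2%. No difference of a member changed sign. Leaving out each replicate in turn gave 8 members and 6370 to 8205 probes called, the most without SCC replicate 2. It gave 21 envelope partners, 2 to 4 transglutaminases higher and 1 lower, 10 to 11 regulators higher and 2 lower, 22 to 27 neighbours and 3 other Sprr genes. Member differences then ran from 7.91 to 9.43 (Sprr1a), 5.24 to 7.17 (Sprr1b), 13.27 to 14.65 (Sprr2d), 5.33 to 6.64 (Sprr2e), 11.86 to 14.19 (Sprr2f), 8.39 to 10.83 (Sprr2h), 3.89 to 5.00 (Sprr2k) and 8.12 to 10.49 (Sprr3). Deviations of arrays with the same replicate number correlated at -0.099 to 0.0093, so the numbers gave no pairing. With the number as a replicate block, 8 members and 6571 probes were called.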
